A study of Mus musculus with 24 samples.

Results

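Genes that mark pre-adipocytes or the mesenchymal progenitors they come from were followed through adipogenic induction of 3T3-L1 cells, and the 10 described here are *Pdgfra*, *Pdgfrb*, *Dlk1*, *Thy1*, *Cd44*, *Ly6a*, *Cd34*, *Sox9*, *Gata2* and *Hic1*. They were chosen by name as known markers, with earlier results of these data in view, and the count tables hold all 10 of them among 26995 gene symbols. 3T3-L1 is a mouse embryonic fibroblast line that turns into adipocytes when it is induced, and all libraries come from this single line. Cells were kept in DMSO or in 0.5 μM ML-792, an inhibitor of the E1 enzyme that activates SUMO, and were collected on days −2, 1, 3 and 7, with 3 libraries, named A, B and C, in each of the 8 conditions. The induction medium held serum, dexamethasone, IBMX and insulin until day 3, and serum and insulin thereafter, in both treatments. In all 24 libraries the cells had taken up 100 μM 4-thiouridine for 45 min before harvest, which marks new RNA by T to C conversions in the reads. For a viability assay the methods start ML-792 on day −2, and for these libraries its time before the day −2 harvest is not given in the sources used here.

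PDGFRα and PDGFRβ are receptor tyrosine kinases of fibroblasts, progenitors and mural cells that respond to platelet-derived growth factors. DLK1, also called Pref-1, is an EGF-repeat protein related to the Notch ligands, made by pre-adipocytes and known to restrain adipocyte differentiation. THY1, CD44, LY6A (Sca-1) and CD34 are surface glycoproteins used to sort mesenchymal progenitors. SOX9, GATA2 and HIC1 are transcription factors of progenitor cells, and GATA2 and SOX9 are known to hold back adipogenesis.

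Each library gave reads from the 3′ ends of transcripts, counted by the authors on RefSeq 3′UTR entries of mm10 as all reads and as labelled reads, those with at least 1 T to C conversion. A library held 13554718 to 27013352 reads (median 17428698) and 115709 to 820046 labelled reads (median 185851). The labelled share of all reads in DMSO was 3.17% ± 0.485 on day −2, 1.27% ± 0.0798 on day 1, 1.03% ± 0.115 on day 3 and 1.03% ± 0.0869 on day 7 (SD, n = 3). Levels below are counts divided by TMM-scaled library size and brought to the mean library, and they are not divided by length, so they are compared within a gene. No 2 libraries were identical. The methods call the 3 libraries of a condition biological replicates without saying whether they were separate cultures, so the p-values measure the spread between these libraries. In such bulk samples, fewer cells of a type and less RNA per cell cannot be told apart. All 10 members passed the filter on low counts in all reads, together with 13331 genes in total, and 9 passed it in labelled reads, among 6434 genes. *Cd34* was left out of the labelled reads, with at most 1 such read in any library. In all reads *Cd34* passed through its day −2 libraries alone.

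For 6 of the 10 members RefSeq (GRCm38.p6) promoter sequence was at hand, and the 250 bases before the start site were searched on both strands for TATAAA (the TATA box), CCAAT (the CCAAT box), GGGCGG (the GC box), CACGTG (the E-box) and TGACTCA (the AP-1 site). These letters occur in 12.4%, 33.9%, 32.7%, 6.02% and 4.46% of 32841 such windows, and none of them contains another. No match lay in the windows of *Dlk1*, *Pdgfra*, *Cd44* and *Cd34*, which hold 8, 4, 5 and 6 CpG dinucleotides, beside a median of 6 over all windows. The *Dlk1* window overlaps an exon of a predicted transcript and is not shown. *Gata2* and *Hic1* have 2 listed starts each, with 22 and 24 CpG for *Gata2* and 18 and 22 for *Hic1*. Shown are *Pdgfra* and *Cd44*, whose RNA fell by day 3, and the *Gata2* and *Hic1* starts with the most matches, whose RNA fell by day 1. The sequences run 5′ to 3′ on the strand of the gene, with CCAAT and GGGCGG, on either strand, in capitals. They lie at chr5:75152001-75152250 (plus strand), chr2:102901666-102901915 (minus), chr6:88198414-88198663 (plus) and chr11:75170256-75170505 (minus). A match is a description of the letters and no evidence of binding. A link between matches and the day of the fall was not tested.
Pdgfra: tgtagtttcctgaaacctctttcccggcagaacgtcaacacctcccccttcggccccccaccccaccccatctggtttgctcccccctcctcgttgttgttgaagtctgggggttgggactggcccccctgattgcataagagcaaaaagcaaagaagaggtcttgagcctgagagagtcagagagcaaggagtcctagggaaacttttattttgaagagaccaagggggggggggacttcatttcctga
Cd44: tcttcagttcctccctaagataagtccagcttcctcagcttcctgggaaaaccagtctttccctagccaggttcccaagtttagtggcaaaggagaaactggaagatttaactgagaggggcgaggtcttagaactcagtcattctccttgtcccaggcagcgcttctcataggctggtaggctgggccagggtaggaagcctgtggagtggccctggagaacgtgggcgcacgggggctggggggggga
Gata2: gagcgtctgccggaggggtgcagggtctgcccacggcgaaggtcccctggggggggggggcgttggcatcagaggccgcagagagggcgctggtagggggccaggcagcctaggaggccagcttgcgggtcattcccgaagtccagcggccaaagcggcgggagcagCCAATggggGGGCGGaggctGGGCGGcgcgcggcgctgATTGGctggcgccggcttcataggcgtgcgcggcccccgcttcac
Hic1: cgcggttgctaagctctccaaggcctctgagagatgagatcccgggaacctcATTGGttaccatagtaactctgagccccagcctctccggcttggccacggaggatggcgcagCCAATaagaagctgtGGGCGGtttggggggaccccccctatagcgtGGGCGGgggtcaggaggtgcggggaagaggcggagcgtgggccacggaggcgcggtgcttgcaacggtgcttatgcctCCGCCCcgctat

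In DMSO, RNA of all these markers was lower in the adipocyte stages than in pre-adipocytes, but the members first passed the test on different days. By day 1, *Pdgfrb*, *Thy1*, *Gata2* and *Hic1* had fallen and *Ly6a* had risen. By day 3, 9 of 10 members had fallen, *Cd34* being the exception with too few reads to pass, and the same 9 were called lower on day 7. In all 10, the 3 libraries of day 3 and of day 7 lay below the 3 of day −2, an order found in 27.7% and 30.3% of all genes tested. The 3 libraries of day 1 lay below day −2 for 22.1% of genes and above for 21.8%. Days were compared in the 12 DMSO libraries by edgeR's quasi-likelihood test at a Benjamini-Hochberg adjusted p under 0.01, which all later p-values over days follow, and the 3 comparisons share the day −2 libraries. At this threshold 17% of genes were called on day 1 (9.36% lower and 7.61% higher), 36.4% on day 3 (18.5% lower) and 38.4% on day 7 (19.1% lower). The members' median log2 fold change was -0.66, -3.11 and -3.22 on the 3 days, beside 0.04, 0.06 and 0.00 over all genes.

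**Figure D1:**
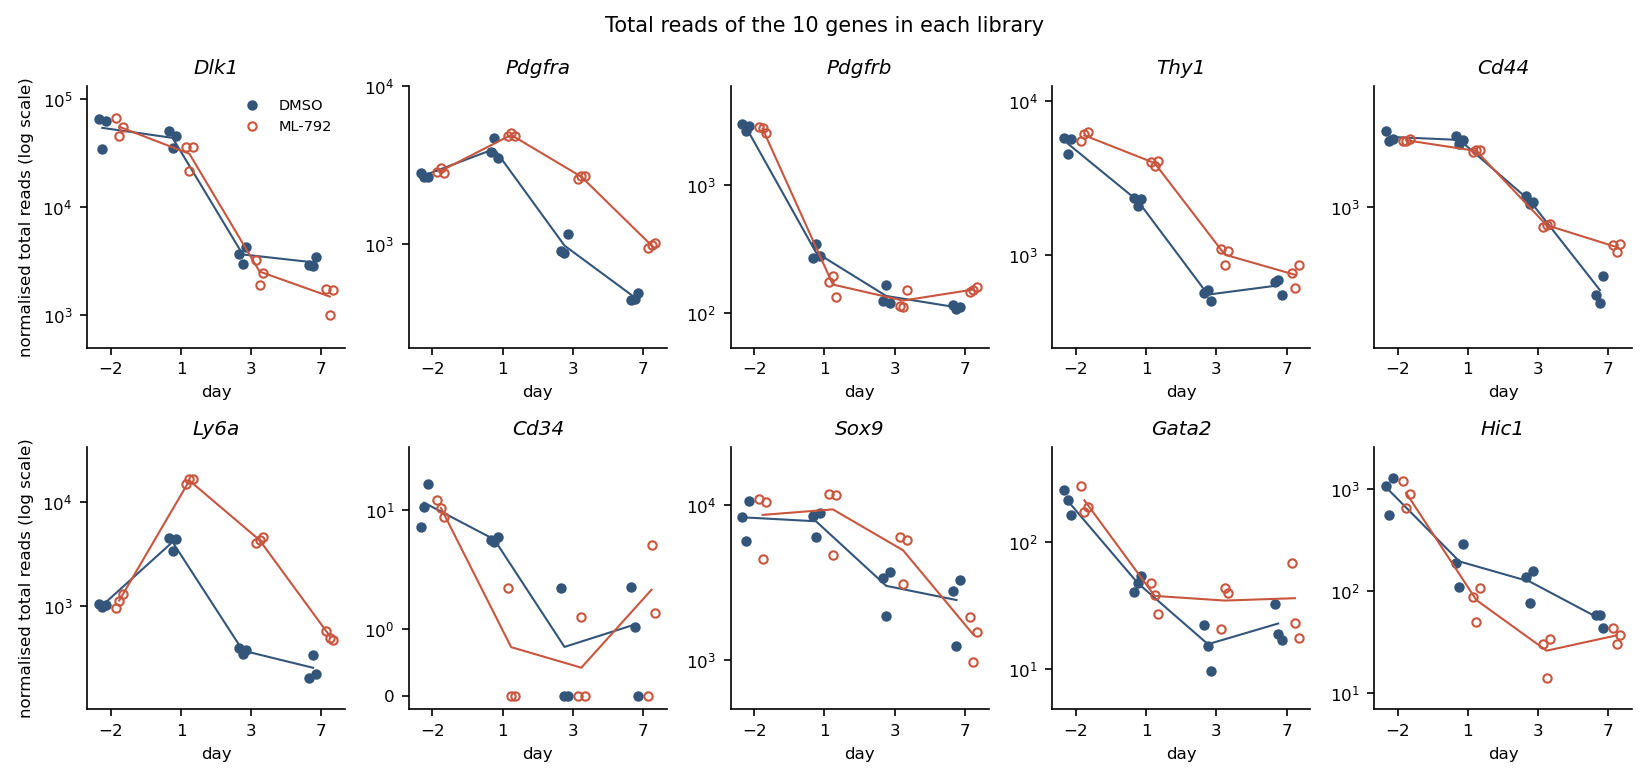
Normalised total reads of the 10 members (log axes, linear below 1 where an axis reaches 0) against day, with points for libraries and lines for means of 3, DMSO in filled and ML-792 in open circles. On days 3 and 7 every DMSO library of every member lies below its day −2 libraries, while *Ly6a* and *Pdgfra* stand highest on day 1.

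Of the 2 PDGF receptors, *Pdgfrb* was called lower by day 1 and *Pdgfra* was not. *Pdgfrb* (NM_008809.2, mm10) read 2977, 2666 and 2912 normalised reads in the 3 pre-adipocyte libraries and 268, 343 and 280.4 on day 1. The groups were far apart, and the change was -3.26 ± 0.18 on the log2 scale (SE, n = 3 per day, adjusted p = 1.62e-08, edgeR). *Pdgfrb* then went to 136 ± 25.1 on day 3 and 111 ± 3.73 on day 7 (SD, n = 3). *Pdgfra* (XM_006504263.3, chr5:75195101-75198211, plus strand) read 2822, 2668 and 2674 on day −2 and 3812, 4703 and 3509.9 on day 1. All 3 day 1 libraries of *Pdgfra* lay above day −2, but the difference of 0.56 ± 0.17 missed the threshold (adjusted p = 0.0233, edgeR). On day 3 *Pdgfra* read 901, 873 and 1154 and on day 7 439, 444 and 489, log2 fold changes of -1.48 ± 0.17 and -2.57 ± 0.18 (adjusted p = 4.08e-06 and 1.27e-08, edgeR). *Pdgfra* was 1 of 2 members, with *Cd44*, that were also called between days 7 and 3, where 10.8% of genes were called, and its change there was -1.09 ± 0.17 (adjusted p = 0.000367, edgeR). DESeq2 called the day 1 difference of *Pdgfra* (adjusted p = 0.00921).

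*Dlk1* (NM_001190703.1, chr12:109460361-109463336, plus strand) read 65543, 34749.8 and 63211 normalised reads on day −2 and 50782, 35470.1 and 45901 on day 1. These groups overlapped, and day 1 differed by -0.31 ± 0.23 (adjusted p = 0.39, edgeR). *Dlk1* then read 3738, 2992 and 4257 on day 3 and 2937, 2877 and 3482 on day 7. That was a step of -3.59 ± 0.26 on the log2 scale between days 1 and 3 (adjusted p = 7.55e-08, edgeR), an interval over which 8 of 10 members and 23.2% of genes were called. Day 7 was -4.14 ± 0.27 from day −2 (adjusted p = 6.73e-09, edgeR). Library B was the lowest of *Dlk1* on each of these days.

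Of the surface glycoproteins, *Thy1* was called lower by day 1. *Thy1* (NM_009382.3, chr9:44047452-44048579, plus strand) read 5794, 4524 and 5663 on day −2, 2339, 2098 and 2322 on day 1, 570.1, 588 and 499.7 on day 3 and 669, 688 and 546 on day 7. No library of a later day reached the pre-adipocyte range, and the log2 fold changes were -1.24 ± 0.16, -3.27 ± 0.18 and -3.07 ± 0.18 (adjusted p = 5.32e-05, 1.39e-09 and 2.02e-09, edgeR). *Cd44*, the hyaluronan receptor (NM_009851.2, chr2:102811141-102814132, minus strand), read 3242, 2761 and 2882 on day −2 and 2999, 2660.3 and 2820.4 on day 1. Those groups overlapped (-0.07 ± 0.17, adjusted p = 0.827, edgeR). *Cd44* read 1192, 1052 and 1088 on day 3 and 261, 231 and 348 on day 7, which was -3.40 ± 0.19 from day −2 (adjusted p = 1.45e-09, edgeR). The later step, between days 3 and 7, was the larger for *Cd44*, at -1.99 ± 0.18 against -1.35 ± 0.17 between days 1 and 3, each called, and the difference between the steps was not tested.

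*Ly6a* was the member called higher on day 1. *Ly6a*, a GPI-anchored surface protein (NM_001271416.1, chr15:74994877-74995261, minus strand), read 1033, 968 and 1024 in pre-adipocytes and 4539, 3406 and 4449 on day 1. Every day 1 library lay above every day −2 library, with a log2 fold change of 2.03 ± 0.20 (adjusted p = 2.59e-06, edgeR). *Ly6a* then read 390.3, 343 and 374 on day 3 and 201, 333 and 222 on day 7, both below day −2 (-1.45 ± 0.20 on the log2 scale and 4-fold lower, adjusted p = 2.3e-05 and 8.34e-07, edgeR). *Ly6a* has close paralogs in the Ly6 family, so reads could be split between copies and its level is uncertain. *Cd34* (NM_133654.3, chr1:194960122-194961292, plus strand), a sialomucin of progenitors, had 9, 12 and 19 raw reads on day −2, 6, 6 and 7 on day 1, 2, 0 and 0 on day 3 and 2, 1 and 0 on day 7. Its adjusted p against day −2 was 0.0118 on day 3 and 0.0173 on day 7, and 0.00894 on day 3 with DESeq2. At 1 to 3 reads over a group the ratio carries a wide counting error, 14.6 for day −2 over day 3 with an exact 95% interval of 3.79 to 125.

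Of the transcription factors, *Gata2* and *Hic1* fell by day 1 and *Sox9* by day 3. *Gata2* (XM_006505539.3, chr6:88205495-88207032, plus strand) read 253, 213 and 162 on day −2, 40.3, 47.6 and 53.9 on day 1, 22.1, 15.3 and 9.73 on day 3 and 32.6, 18.7 and 17.1 on day 7, with no overlap between day −2 and later days. Its log2 fold change was -2.14 ± 0.34 on day 1 and -3.72 ± 0.38 on day 3 (adjusted p = 0.000257 and 1.2e-06, edgeR). *Hic1*, a zinc finger repressor (NM_001098203.1, chr11:75164565-75165379, minus strand), read 1059.7, 548 and 1261 on day −2, 187, 108 and 286 on day 1, 138, 75.3 and 157 on day 3 and 58.4, 58.3 and 43.2 on day 7. Its groups did not overlap day −2 either, with changes of -2.30 ± 0.37 on day 1 and -4.16 ± 0.41 on day 7 (adjusted p = 0.000312 and 7.42e-07, edgeR). *Sox9* (NM_011448.4, chr11:112785511-112787757, plus strand) read 8382, 5854 and 10691 on day −2 and 8482, 6177 and 8903 on day 1, which overlap. *Sox9* read 3401, 1905 and 3708 on day 3 and 2802, 1226 and 3272 on day 7, log2 fold changes of -1.47 ± 0.34 and -1.77 ± 0.34 (adjusted p = 0.00238 and 0.000525, edgeR). Without the A libraries the day 1 calls of *Thy1*, *Gata2* and *Hic1* and both *Sox9* calls were lost (adjusted p = 0.0186, 0.0239, 0.0308, 0.0357 and 0.0143, edgeR), with the same direction. Without the C libraries *Sox9* was not called on day 3 (adjusted p = 0.0208, edgeR). Over all genes, 546, 2446 and 2774 were called on days 1, 3 and 7 without the A libraries. With all libraries they were 2263, 4853 and 5122, and without the C libraries 2882 were called on day 3.

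**Figure D2:**
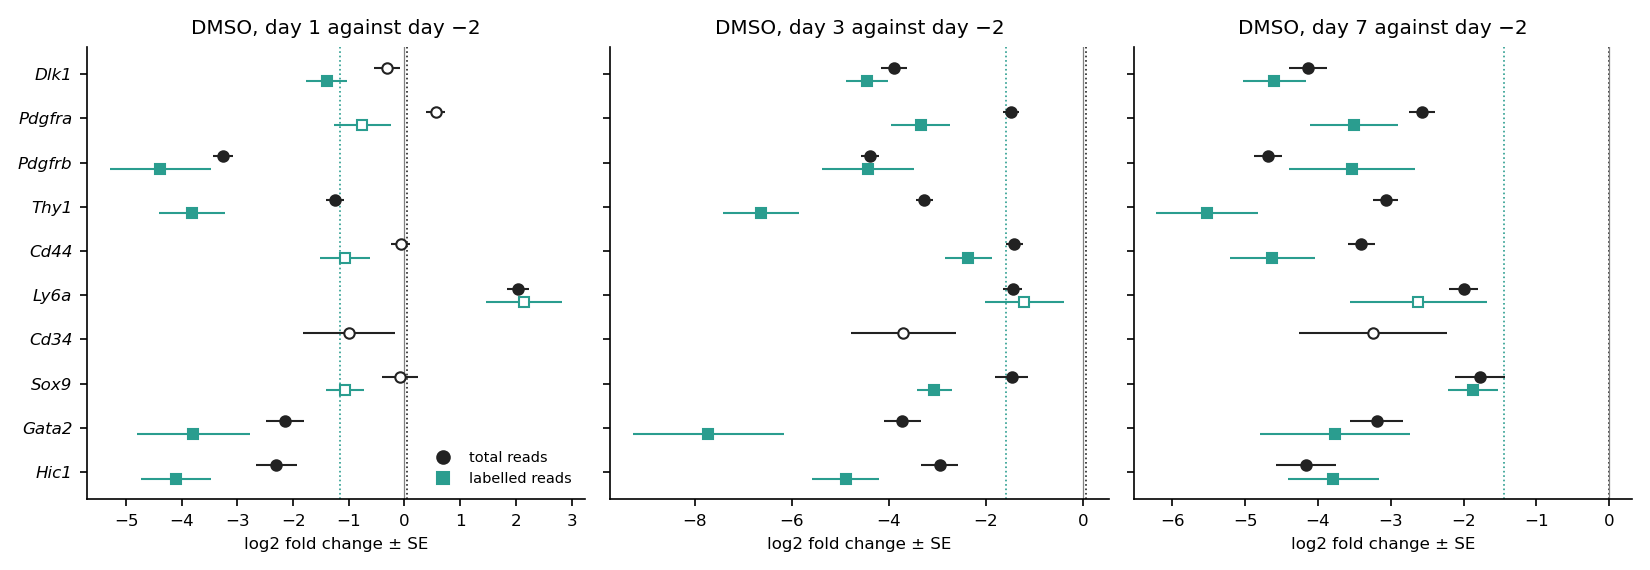
Log2 fold change (SE) of total and labelled reads of each member on days 1, 3 and 7 against day −2 in DMSO, with filled symbols for an adjusted p under 0.01 (edgeR) and dotted lines at the median of all genes. On days 3 and 7 the total reads of all members but *Cd34* are called lower, and *Ly6a* stands above zero on day 1.

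The genes around the members moved in part with them. Of the PDGF ligands, 3 of 4 could be tested, and all 3 were lower on day 3, *Pdgfa* with -1.88 ± 0.21 and *Pdgfc* with -2.36 ± 0.31 on the log2 scale, and *Pdgfb* with 49 reads over the day −2 libraries and 0 on day 3. Of 13 genes of the DLK1 and Notch group 10 were tested, and 1, 3 and 6 were lower on days 1, 3 and 7 with none higher. On day 7 they included *Jag1*, a Notch ligand (-2.15 ± 0.23), and *Hes1*, a Notch target (-1.69 ± 0.24). Their medians were 0.23, -0.19 and -1.50. Of the CD44 partners, 9 of 10 were tested, with 1 higher and 2 lower on day 1, 4 lower on day 3 and 5 on day 7 (medians -0.38, -0.92 and -1.85). The hyaluronan synthase gene *Has2* rose on day 1 (1.57 ± 0.26), and *Spp1* (osteopontin, a CD44 ligand) fell by day 3 (-5.42 ± 0.54), as did *Mmp14*, which sheds CD44 (-3.21 ± 0.18).

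Among 14 tested of 18 further surface or secreted progenitor markers, 3 rose and 1 fell on day 1, and on day 3 and on day 7 1 was higher and 10 were lower. The medians were -0.52, -1.88 and -2.09. *Anpep* (CD13), *Vcam1* and *Procr* fell by day 3 (-4.01 ± 0.29, -3.99 ± 0.18 and -3.81 ± 0.34), whereas *Mcam* (CD146) rose (5.59 ± 0.39). On day 1, *Pi16* (2.99 ± 0.39), *Cd24a* (2.93 ± 0.45) and *Ly6c1* (1.30 ± 0.25), a relative of *Ly6a*, rose as *Ly6a* did. Of 15 tested progenitor transcription factors, 1 was higher on each day and 4, 7 and 9 were lower (medians -0.13, -0.83 and -1.26), with *Osr1* (-4.21 ± 0.21), *Snai2* (-3.01 ± 0.17) and *Prrx1* (-2.85 ± 0.19) lowest on day 3. All 12 markers of mature adipocytes were called higher on days 3 and 7 and 8 of them on day 1, with medians of 1.51, 6.54 and 7.08. Their summed level rose from 23220 to 24644 reads per library on day −2 to 729611 to 811473 on day 7. Endothelial markers summed to at most 20.6 normalised reads in any condition and blood cell markers to at most 153, with *Ptprc* (CD45) at 0 throughout. The 6 markers of mural cells, which are known to express *Pdgfrb*, summed to 30821 to 62170 on day −2 and 240 to 592 on day 3 in DMSO, nearly all of it *Acta2*. Of the 2 that passed the filter, *Acta2* was called lower on day 3 (-6.98 ± 0.41) and *Myh11* higher (2.26 ± 0.60, from 6.89 ± 2.84 to 33.2 ± 12.9 normalised reads, SD, n = 3), and the part of mural cells in the fall of *Pdgfrb* was not tested. The 5 skeletal muscle markers summed to 265 to 501 on day 7 in DMSO, nearly all of it *Des*.

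Labelled reads address new RNA made in the 45 min before harvest. They fell in the same libraries, on a background in which most genes had fewer labelled reads after day −2. The median gene changed by -1.16, -1.58 and -1.45 on the log2 scale on days 1, 3 and 7, and 18.4%, 32.6% and 29.4% of genes were called, of which nearly all were lower (17.9%, 30.6% and 27.4%). Of the 9 members tested, 5 were lower on day 1 (*Dlk1*, *Pdgfrb*, *Thy1*, *Gata2* and *Hic1*) and 8 on days 3 and 7, all but *Ly6a*. Of these, *Gata2*, *Hic1* and *Pdgfrb* passed the filter through their day −2 libraries alone. In any later library they had at most 6, 14 and 12 labelled reads, so their falls are not independent of the filter. When labelled reads were instead scaled by each library's own labelled reads, which takes the common fall out, 2 members remained lower on day 1 (*Thy1* and *Hic1*), *Ly6a* was called higher there (3.13, adjusted p = 0.000533, edgeR), and 5 were called on day 7.

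*Thy1* had 146, 59 and 115 labelled reads on day −2, 9, 5 and 7 on day 1, 0, 2 and 0 on day 3 and 2, 1 and 2 on day 7. Its log2 fold change on day 1 was -3.82 ± 0.59 (adjusted p = 1.27e-06, edgeR). On day 3 the ratio of day −2 over day 3 was 117 with an exact 95% interval of 32.1 to 969 from 320 and 2 reads, which covers counting error only. *Hic1* had 180, 47 and 158 labelled reads on day −2 and 6, 1 and 14 on day 1 (-4.10 ± 0.63, adjusted p = 1.17e-06, edgeR), again without overlap. In labelled reads all 3 day 1 libraries lay below day −2 for 47.6% of genes and above for 2.38%. Those of days 3 and 7 lay below for 57.5% and 55.6%. *Gata2* had 41, 31 and 20 on day −2 and 0 in all 3 libraries on day 3. Against a floor of 3 reads over the group it was 22.4-fold higher on day −2. The exact 95% lower limit of that ratio was 17.9. *Dlk1* had 439.9 ± 203 normalised labelled reads on day −2 and 167 ± 28.2 on day 1 (SD, n = 3), a change of -1.40 ± 0.37 (adjusted p = 0.0032, edgeR) near the median of all genes, and it was not called without the A libraries (adjusted p = 0.133). *Gata2* on day 1 (adjusted p = 0.12) and day 7 (0.0871), *Pdgfra* on day 3 (0.0174) and *Pdgfrb* on day 7 (0.0191) were not called without them either. Without the C libraries *Dlk1* on day 1 (0.0392) and *Gata2* on day 7 (0.0205) were not called. *Pdgfrb* was not called by DESeq2 on any of the 3 days (adjusted p = 0.0188, 0.0127 and 0.0483). *Ly6a*, with 10, 7 and 9 labelled reads on day −2 and 34, 25 and 53 on day 1, was higher in every day 1 library but not called (2.15 ± 0.69, adjusted p = 0.0136, edgeR, and 0.00504 with DESeq2).

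**Figure D3:**
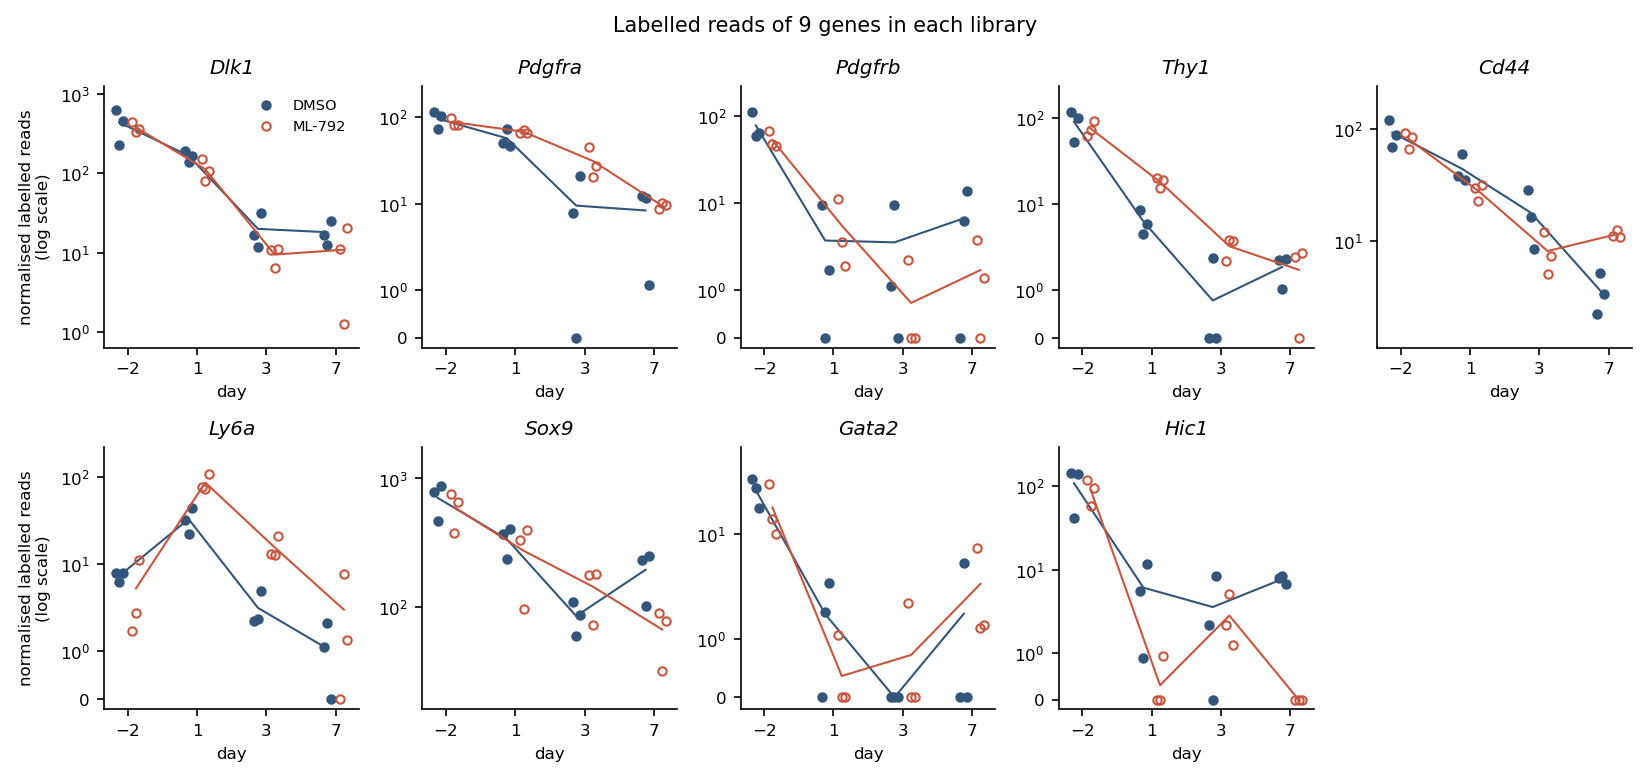
Normalised labelled reads (log axes, linear below 1 where an axis reaches 0) of the 9 members tested, by day, with points for libraries and lines for means of 3. In DMSO the 3 day −2 libraries lie above all later ones for every member drawn but *Pdgfra* and *Ly6a*, and several members reach 0.

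The labelled share of a gene's own reads differed widely between members. In pre-adipocytes in DMSO it was 12.2 ± 1.24% for *Gata2*, 10.7 ± 3.03% for *Hic1* and 8.48 ± 0.798% for *Sox9*, the 3 transcription factors, and from 0.726 ± 0.0771% for *Ly6a* to 3.53 ± 0.719% for *Pdgfra* among the receptors, *Dlk1* and the surface proteins (SD, n = 3). The length and number of T bases of an entry also set this share, so it is not a rate, and no library without 4-thiouridine was analysed here that would give the background of conversions. Against day −2, the share was called lower for *Dlk1*, *Thy1* and *Sox9* on day 1, for *Pdgfra*, *Thy1* and *Sox9* on day 3 and for *Thy1* on day 7. Over all genes 17.9%, 31.2% and 23.5% were called (17.9%, 31.2% and 23.4% lower). The share of whole libraries fell over these days too, and with the labelled and unlabelled reads of each library scaled by their own size none of the 7 calls was made, *Thy1* on day 1 coming nearest (adjusted p = 0.0508, edgeR). Leaving out the A libraries also ended the calls of *Dlk1* and *Sox9* on day 1 (adjusted p = 0.0726 and 0.0713), of *Pdgfra* on day 3 (0.0432) and of *Thy1* on days 3 and 7 (0.0248 and 0.0351). The C libraries did so for all of these but *Pdgfra* (0.0105 to 0.0222), and the B libraries for *Pdgfra* (0.0176). For *Sox9* the shares were 9.38, 7.89 and 8.16% on day −2, 4.32, 3.84 and 4.55% on day 1, 3.18, 3.09 and 2.33% on day 3 and 8.26, 8.23 and 7.61% on day 7. The day 7 shares of *Sox9* lay near those of day −2, 1 of them below their range (-0.08 ± 0.25, adjusted p = 0.791, edgeR), while the median gene stood at -1.40. Of the 9 members 1 lay below that median on day 7. *Hic1*, from few reads, had 1.6, 0 and 5.43% on day 3 and 13.5, 14.3 and 15.8% on day 7 (0.55 ± 0.78 against day −2, adjusted p = 0.556, edgeR). *Pdgfrb* had 0.893, 5.71 and 0% and 0, 5.83 and 12.4% (1.15 ± 0.85, adjusted p = 0.249, edgeR), with libraries far apart. In the scaling by own size *Sox9* was called higher on day 7 (1.07, adjusted p = 0.000819, edgeR).

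**Figure D4:**
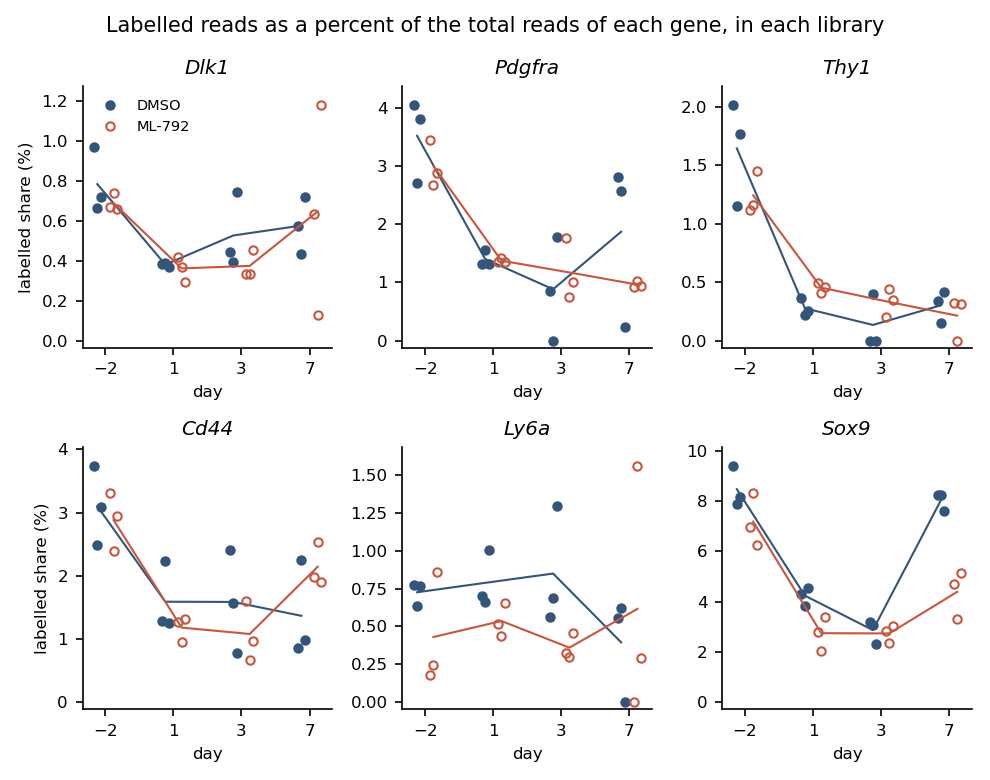
Labelled share of the reads of *Dlk1*, *Pdgfra*, *Thy1*, *Cd44*, *Ly6a* and *Sox9*, in percent, by day, with points for libraries and lines for means of 3. *Gata2*, *Hic1*, *Pdgfrb* and *Cd34* are not drawn. *Sox9* in DMSO drops from 8.48% to 2.86% between day −2 and day 3 and is back at 8.04% on day 7.

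Under ML-792 members differed from DMSO on days 1, 3 and 7, some higher and some lower. On day −2 none of the 10 members was called against DMSO at an adjusted p under 0.1, the threshold of the treatment comparisons, and none had an unadjusted p under 0.05. The tools called none of the 13331 genes there, 184 having an unadjusted p under 0.05 with edgeR and 240 with DESeq2. On day 1, 2 members were called higher and 2 lower, beside 7.87% of genes (3.82% higher and 4.05% lower). Day 3 had 3 higher and 2 lower, beside 15.5% (8.04% and 7.5%), and day 7 had 3 higher and 1 lower, beside 11.7% (6.32% and 5.43%). *Ly6a* was higher on all 3 days, *Pdgfra* on days 3 and 7 and *Thy1* on days 1 and 3. *Hic1* was lower on days 1 and 3, *Pdgfrb* on day 1 and *Dlk1* on day 7, while *Cd44* was lower on day 3 and higher on day 7. The members' median was -0.29, 0.32 and 0.56, beside -0.01, -0.01 and 0.01 over all genes. Over all genes, groups without overlap had ML-792 above DMSO in 10.2%, 12.7% and 13.6% on days 1, 3 and 7. They had it below in 11.4%, 12.6% and 13%.

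*Ly6a* moved farthest. On day 1 it read 4539, 3406 and 4449 normalised reads in DMSO and 14889, 16883 and 16816 in ML-792. On day 3 *Ly6a* read 390.3, 343 and 374 in DMSO and 4048, 4272 and 4594 in ML-792, so that the treated libraries of day 3 overlapped the DMSO libraries of day 1. The log2 fold changes were 1.97 ± 0.17 and 3.54 ± 0.19 (adjusted p = 6.06e-08 and 8.88e-12, edgeR). On day 7 *Ly6a* read 201, 333 and 222 in DMSO and 571, 488 and 469.8 in ML-792, still without overlap (1.02 ± 0.17, adjusted p = 0.000437, edgeR), and this call was lost without the A libraries (adjusted p = 0.12). The effect on *Ly6a* differed between days (F-test of the day by treatment interaction, adjusted p = 3.55e-08, edgeR), as it did for 6 of the 10 members and 11.9% of genes at an adjusted p under 0.1.

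*Pdgfra* was also higher in ML-792. It read 901, 873 and 1154 on day 3 in DMSO and 2600.0, 2699 and 2710.2 in ML-792, whose own day −2 libraries read 2846, 3054 and 2823. On day 7 *Pdgfra* read 439, 444 and 489 in DMSO and 941, 983 and 1009 in ML-792. Neither pair overlapped, and the log2 fold changes were 1.45 ± 0.14 and 1.09 ± 0.14 (adjusted p = 5.01e-08 and 6.28e-06, edgeR, interaction adjusted p = 4.27e-05). *Pdgfrb* went the other way on day 1, with 268, 343 and 280.4 in DMSO and 173, 194 and 132 in ML-792 (-0.84 ± 0.16, adjusted p = 0.00209, edgeR), and it was not called on days 3 and 7. The call was lost without the A or the C libraries (adjusted p = 0.112 and 0.101), and so was its interaction (0.00564 with all libraries, 0.254 and 0.207 without A and C). The ligand gene *Pdgfc* was higher in ML-792 on days 1, 3 and 7 (2.54 ± 0.29, 2.01 ± 0.29 and 1.41 ± 0.29), and the other 2 tested ligands were not called.

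*Thy1* read 2339, 2098 and 2322 on day 1 in DMSO and 4011, 3793 and 4101 in ML-792. On day 3 *Thy1* read 570.1, 588 and 499.7 in DMSO and 1088, 861 and 1068 in ML-792. Groups did not overlap on either day (0.82 ± 0.15 and 0.86 ± 0.15, adjusted p = 0.00109 and 0.000339, edgeR), and day 1 was not called without the A libraries (adjusted p = 0.128). *Cd44* read 1192, 1052 and 1088 in DMSO and 745, 762 and 776 in ML-792 on day 3, and 261, 231 and 348 and 556, 501 and 570.2 on day 7. The difference thus changed sign, from -0.55 ± 0.14 to 0.95 ± 0.14 (adjusted p = 0.00954 and 6.13e-05, edgeR, interaction adjusted p = 6.34e-05). The lower value on day 3 was not called without A (adjusted p = 0.311) or without C (0.1), nor with no filter on low counts (0.132), and the interaction of *Cd44* was not called without A (0.13). *Dlk1* on day 7 read 2937, 2877 and 3482 in DMSO and 1745, 1005 and 1726 in ML-792, all lower (-1.05 ± 0.26, adjusted p = 0.0137, edgeR), and this call was lost without A or without C (adjusted p = 0.12 and 0.194).

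Of the 3 transcription factors, *Hic1* was called lower under ML-792. It read 187, 108 and 286 in DMSO and 86.7, 50.1 and 107 in ML-792 on day 1, and 138, 75.3 and 157 and 30.5, 13.9 and 33.5 on day 3. The treated libraries lay below the DMSO libraries on both days (-1.25 ± 0.37 and -2.23 ± 0.42, adjusted p = 0.0569 and 0.000807, edgeR). The day 1 call was lost without A or C (adjusted p = 0.458 and 0.346) and when the 6 libraries of thon day were fitted alone (0.146). Lost without A or C were also the interactions of *Hic1* (0.0601 with all libraries, 0.721 without A and 0.297 without C) and of *Thy1* (0.0479, 0.798 and 0.333, and 0.26 with no filter on low counts). *Sox9*, *Gata2* and *Cd34* were not called on any day when the letters were not part of the model. *Sox9* read 3401, 1905 and 3708 in DMSO and 6236, 3092 and 5974 in ML-792 on day 3, with overlapping groups and library B lowest in each. Without the B libraries *Sox9* was called on days 1, 3 and 7 (adjusted p = 0.0773, 0.000457 and 0.000414, edgeR), higher on days 1 and 3 and lower on day 7.

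**Figure D5:**
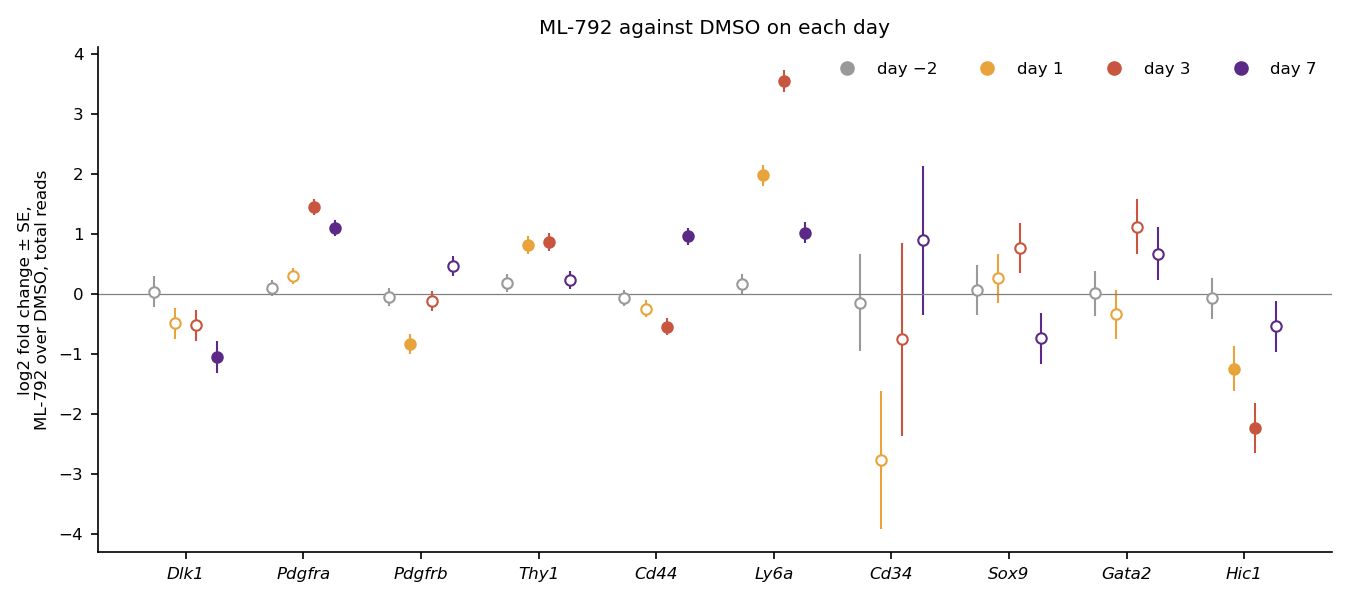
Log2 fold change (SE) of total reads, ML-792 against DMSO, for each member on days −2, 1, 3 and 7. Filled symbols mark an adjusted p under 0.1 (edgeR), and the grey line lies at 0. *Ly6a* is higher and *Hic1* lower on days 1 and 3, and no symbol is filled on day −2.

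In labelled reads a single member comparison was called under ML-792, *Hic1* on day 7, where 0.948% of genes were called (0.87% lower). *Hic1* had 7, 8 and 6 labelled reads in DMSO and 0 in each ML-792 library, among 86 reads in all, which allows a share of up to 3.49%. Against a floor of 3 reads over the group *Hic1* was 5.998-fold lower, a ratio that leaves out the counting error of the DMSO reads. The difference was called (adjusted p = 0.0311, edgeR), but not without A or without C (adjusted p = 0.382 and 0.19). On days 1 and 3 edgeR called none of the 9 members, beside 0.979% and 1.15% of genes, and DESeq2 called 1 and 2. At an unadjusted p under 0.05 (edgeR) were 3 and 4 members, beside 727 and 668 of 6434 genes. *Ly6a* on day 3 had 2, 2 and 4 labelled reads in DMSO and 12, 10 and 17 in ML-792, and *Pdgfra* 7, 0 and 17 and 42, 16 and 22. Their differences, 2.28 ± 0.72 and 1.72 ± 0.54, had the sign of the total reads and did not pass (adjusted p = 0.17 and 0.167, edgeR), and DESeq2 called both (0.0757 and 0.0626). The labelled share of no member was called against DMSO on any day by edgeR, beside 0%, 0.0466%, 0% and 0.155% of genes. On days −2, 1, 3 and 7, 0, 1, 1 and 3 of 9 had an unadjusted p under 0.05 (edgeR). Over all 6434 genes these numbers were 86, 528, 442 and 623. The day by treatment interaction of labelled reads called none of the 9 members by edgeR, beside 0.28% of genes, and DESeq2 called 1. At an unadjusted p under 0.05 (edgeR) were 5 of the 9, beside 522 of 6434 genes.

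Around the members, more progenitor surface genes were called higher than lower under ML-792 on day 3. Of the 14 tested surface markers, 3 were higher and 2 lower on day 1, 5 higher and 0 lower on day 3, and 3 higher and 0 lower on day 7 (medians 0.22, 0.36 and 0.45). *Pi16* (3.35 ± 0.46), *Ly6c1* (2.47 ± 0.24), *Cd24a* (1.82 ± 0.33) and *Alcam* (0.78 ± 0.15) led on day 3. The first 3 of them, like *Ly6a*, were in DMSO called higher on day 1 than on day −2 and lower on day 3 than on day 1. Among the CD44 partners 2, 4 and 1 were higher and 1, 0 and 0 lower (medians -0.13, 0.54 and 0.46), with *Ezr*, which ties CD44 to actin, at 2.15 ± 0.22 and *Spp1* at 1.68 ± 0.50 on day 3. Of the DLK1 and Notch genes 0, 0 and 1 were higher and 2, 2 and 0 lower (medians -0.34, -0.27 and 0.17), and *Jag1* went from -0.77 ± 0.20 on day 3 to 0.61 ± 0.20 on day 7, a change of sign it shared with *Cd44*. Of the progenitor transcription factors 2, 4 and 7 were higher and 3, 1 and 1 lower (medians -0.31, 0.23 and 0.47). *Gata3*, a relative of *Gata2*, was higher on days 1, 3 and 7 (1.56 ± 0.36, 2.55 ± 0.35 and 2.05 ± 0.36). Markers of mature adipocytes were mixed, with 3, 2 and 3 of 12 higher and 1, 5 and 0 lower (medians 0.42, -0.41 and 0.02). Their summed level was lower in ML-792 on day 1, at 39548.7 to 44398.1 reads per library against 47464.5 to 48280.2 in DMSO. The sums overlapped on day 3. On day 7 they were higher in ML-792, at 972745 to 990959 against 729611 to 811473, and the sums were not tested.

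The members did not share 1 pattern over the 24 libraries. Pearson's r of log2 normalised reads, which is a description over libraries that share days and treatments, was highest between *Gata2* and *Pdgfrb* (0.922), *Dlk1* and *Thy1* (0.918) and *Hic1* and *Pdgfrb* (0.903). *Pdgfra* stood nearest to *Ly6a* (0.874), and *Ly6a* had r of -0.02 with *Pdgfrb* and -0.06 with *Hic1*. Among all 13331 genes, the one most like *Dlk1* was *Timp1* (0.986), most like *Pdgfra* *Mdga1* (0.970), most like *Pdgfrb* *Cnn2* (0.978) and most like *Thy1* *Aebp1* (0.985). For *Cd44* it was *Igf2r* (0.981), for *Ly6a* *Tle4* (0.963) and for *Cd34* *Itga8* (0.922). For *Sox9* it was *Ifitm3* (0.946), for *Gata2* *2810433D01Rik* (0.941) and for *Hic1* *Ccdc136* (0.969).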

How the data were processed

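The authors made 3′ mRNA libraries, demultiplexed them with bcl2fastq 2.17.1.14, mapped them to mm10 with SlamDunk 0.4.3 and deposited raw counts of all reads and of labelled reads per RefSeq 3′UTR entry, without normalization. Each table has 6 library columns that belong to no sample here, and they were not used. A gene was represented by the entry with the highest mean total count, and entries of a gene can overlap and share reads. Counts were tested with edgeR 4.0.16 in R 4.3.3 (TMM factors of all reads, also for labelled reads, filterByExpr at a per-library count of 10 and a summed count of 15). P-values were adjusted over all 26563 or 10589 entries tested. Days were compared in the 12 DMSO libraries, ML-792 with DMSO in all 24, and labelled shares in a fit of 48 columns, labelled and unlabelled reads of each library side by side. Scripts were tested on simulated data. Alternatives included DESeq2 1.42.0, other filters and scalings, and leaving out each letter. All 10 members are described; from each gene list up to 4 genes with the largest called change were named, and for each member the gene with the highest correlation. Intervals and floors cover counting error only, and floors only that of the group without reads. The members and lists were chosen with earlier results of these data known.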

Additional observations from a re-analysis of the deposited data

Results flagged for a closer look

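For 6 members the difference between ML-792 and DMSO in total reads was not the same on all days, by edgeR's F-test of the day by treatment interaction, and each is listed with its adjusted p. For *Ly6a* it was 3.55e-08, with the difference highest at day 3. For *Pdgfra* it was 4.27e-05, with differences at days 3 and 7. For *Cd44* it was 6.34e-05, with opposite signs at days 3 and 7. For *Pdgfrb* it was 0.00564, for *Thy1* 0.0479 and for *Hic1* 0.0601, and these 3 were not past the threshold when the A or the C libraries were left out, nor was *Cd44* without the A libraries (0.13). The days share no libraries, but each day rests on 3 libraries per treatment.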

How the results depend on the processing

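Not each of the 127 values of single genes was rerun under each alternative. Of those rerun, edgeR with one entry per gene left 92 on the same side of the threshold and changed 3, and DESeq2 left 87 and changed 8. Taking the next entry of *Dlk1*, *Pdgfra* and *Cd34* moved none of 24 levels beyond the spread between libraries. These entries overlap the main ones and share their reads, with equal levels for *Pdgfra* and *Cd34*. This could therefore not show whether a level depends on the entry. Scaling labelled reads by the labelled reads left 23 and changed 19. It turned the labelled difference of *Pdgfra* at day 1 in DMSO to 0.27 and the *Sox9* share at day 7 to 1.07, and called 3 members at day 1 and 5 at day 7 in labelled reads, in place of 5 and 8. Under it no member's share was called at days 1 and 3 (0 and 0) and 1 member's on any day, in place of 4.

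For labelled reads under ML-792, members called on any day were 1 as reported, 4 with DESeq2 and 2 each with no filter on low counts, with labelled scaling and with the 6 libraries of a day alone. At day 1 they were 0 as reported and 1 each with DESeq2, no filter and one entry per gene. At day 3 they were 0, with 2 by DESeq2 and 1 by labelled scaling, and at day 7 1, with 2 by DESeq2, by no filter and by the 6 libraries alone. The labelled interaction called 0 members, 1 with DESeq2 and 2 with no filter. EdgeR gave 5 of 9 an unadjusted p under 0.05, beside 522 of 6434 genes.

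Leaving out 1 letter in turn gave 2 to 5 members for total reads at day 1 in DMSO, 1 to 7 and 2 to 6 for ML-792 at days 1 and 7, and 2 to 8 for the interaction, the lowest each time without the A libraries. Over all genes, 546, 2914 and 855 were called at day 1 in DMSO without A, B and C, in place of 2263. Under ML-792 they were 302, 1295 and 441 at day 1, in place of 1049. At day 3 they were 811, 2549 and 990, in place of 2072. At day 7 they were 475, 2027 and 507, in place of 1566, and in the interaction 294, 2085 and 424, in place of 1588. For labelled reads the ranges of members were 3 to 7 at day 1 in DMSO, 0 to 2 for ML-792 on any day, 0 to 1 at days 1 and 3, 0 to 2 at day 7 and 0 to 1 for the interaction. For shares in DMSO they were 1 to 3, 1 to 2 and 0 to 1 at days 1, 3 and 7 and 2 to 3 on any day. Labelled reads at day 1 in DMSO called 305, 1344 and 591 genes without A, B and C, in place of 1187. Under ML-792 they called 17, 50 and 19 at day 1 and 11, 69 and 15 at day 7, in place of 63 and 61. At day 3 they called 23, 73 and 24, in place of 74. Shares in DMSO called 138, 785 and 355 genes at day 1, in place of 1154. At day 3 shares called 579, 1281 and 677, in place of 2010, and at day 7 361, 1035 and 524, in place of 1513. Uncalled differences that crossed 0 were *Sox9* at day 1 in DMSO (-0.13 to 0.0470), *Pdgfrb* at day 3 (-0.36 to 0.12) and *Thy1* at day 7 (-0.0035 to 0.42) under ML-792, and labelled *Pdgfra* at day 7 under ML-792 (-0.35 to 0.61).

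With the replicate block, total reads called 8 members at day 3 under ML-792 in place of 5, adding *Sox9*, *Dlk1* and *Gata2* (adjusted p = 0.000428, 0.00507 and 0.0455, edgeR), and labelled reads called 4 on any day, 1, 2 and 2 at days 1, 3 and 7, and 2 in the interaction. Libraries of one letter did not all deviate together (correlation 0.191 on average and -0.175 at lowest in total reads), and the letters were not taken as pairs. The average between letters, -0.0939, follows from centring each condition on its own mean and is no separate measure. Library B was still the lowest in all 8 conditions for 8.19% of genes. The fits as reported count such a shared offset as spread between libraries, so their calls and non-calls depend on this choice. What the letters share was not settled.

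Over all genes, the block called 3295 genes in the interaction of total reads in place of 1588, and 2087, 3262 and 2869 under ML-792 at days 1, 3 and 7 in place of 1049, 2072 and 1566. The 6 libraries of a day alone called 694 and 1325 at days 1 and 3. In the DMSO days the block called 3499 genes at day 1 in place of 2263, and 2477 between days 7 and 3 in place of 1439. Labelled scaling called 371, 821 and 791 genes in labelled reads at days 1, 3 and 7 in place of 1187, 2100 and 1890, and 79, 113 and 134 in shares in place of 1154, 2010 and 1513. In labelled reads under ML-792, DESeq2 called 164, 131 and 144 genes and the block 178, 135 and 155, in place of 63, 74 and 61, and the 6 libraries alone called 102 at day 7. Labelled counts of *Gata2*, *Hic1*, *Ly6a*, *Pdgfrb* and *Thy1* after day −2, and all counts of *Cd34*, were too low for small differences to be detectable.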

Other observations

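Among the members, library B was the lowest of its 3 in all 8 conditions for *Dlk1* and for *Sox9*, in 7 of 8 for *Hic1* and in 6 of 8 for *Cd44*. The ratio of B to the mean of A and C had a median of 0.698 over the conditions for *Dlk1*, 0.521 for *Sox9* and 0.514 for *Hic1*. Over the genes tested, B was lowest in all 8 conditions for 8.19%, A for 0.36% and C for 0.9%. The methods call the libraries of a condition biological replicates, and what a letter shares between conditions is not given in the sources used here.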
